A study of Rattus norvegicus with 47 samples.

Results

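In all, 7 chemokine system genes were followed through the lungs and blood of rats that had inhaled crystalline silica: the ligands Ccl17, Ccl22, Ccl20, Ccl24 and Ccl11 and the receptors Ccr4 and Ccr6. They were chosen by gene name, with earlier results of these data known. Each name stood on 1 line of each of the 4 count tables, so they are 7 of 30045 gene lines in a table. The groups used were silica lung at 1 day (6 libraries), air lung at 1 day (6), silica lung at 6 months (6) and air lung at 6 months (5), and the same 4 groups of whole blood (6 each), 47 libraries in all. All animals were healthy male Fischer 344 rats, an inbred strain, of 250 to 300 g; an age is not given in the labels. Silica rats breathed an aerosol of Min-U-Sil 5, a respirable quartz dust, at 15 mg/m3 for 6 hours a day on 5 days in whole-body chambers, and air rats breathed filtered air. The times of 1 day and 6 months count from the end of exposure to killing. Blood RNA was depleted of globin transcripts, and all libraries were made from polyadenylated RNA. Total estimated counts per library ranged from 9.64e6 to 25.9e6.

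Chemokines are small secreted proteins that draw leukocytes along a concentration gradient through receptors on those cells. Ccl17 and Ccl22 are made mainly by dendritic cells and macrophages and share the receptor Ccr4, which is carried by type 2 helper T cells and regulatory T cells. Ccl20 is released by epithelial cells and macrophages under inflammatory signals and is the chemokine ligand of Ccr6, a receptor of B cells, interleukin 17-producing T cells and immature dendritic cells. Ccl24 and Ccl11 are eotaxins, which act on the eosinophil receptor Ccr3; Ccl24 is made largely by macrophages and Ccl11 by fibroblasts, smooth muscle and epithelium. In whole tissue, fewer cells of a type and less RNA per cell cannot be told apart.

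The promoters of the 4 ligands that differed between silica and air lungs are shown because these ligands sit in 3 separate chromosomal places and did not all move in the same direction. Each line gives the 250 bases before the RefSeq start of the rat gene, 5′ to 3′ on the gene's strand, in build GRCr8. Capitals mark matches to a kappa-B-like motif (GGGNNNNNCC) or a STAT6-like motif (TTCNNNNGAA), each searched on both strands. The AP-1-like motif TGANTCA was searched in the same way and had no match in these windows.
Ccl17, chr19:10209896-10210145, minus strand: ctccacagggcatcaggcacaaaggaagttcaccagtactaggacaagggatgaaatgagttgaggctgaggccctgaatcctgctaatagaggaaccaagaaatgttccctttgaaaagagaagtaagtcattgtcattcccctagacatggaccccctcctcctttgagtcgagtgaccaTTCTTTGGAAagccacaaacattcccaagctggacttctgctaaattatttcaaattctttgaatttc
Ccl22, chr19:10270360-10270609, minus strand: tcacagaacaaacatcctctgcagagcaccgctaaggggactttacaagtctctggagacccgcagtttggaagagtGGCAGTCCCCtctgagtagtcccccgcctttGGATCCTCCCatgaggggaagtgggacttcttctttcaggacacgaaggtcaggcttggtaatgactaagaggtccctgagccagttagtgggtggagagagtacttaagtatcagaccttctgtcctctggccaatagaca
Ccl20, chr9:91836909-91837158, plus strand: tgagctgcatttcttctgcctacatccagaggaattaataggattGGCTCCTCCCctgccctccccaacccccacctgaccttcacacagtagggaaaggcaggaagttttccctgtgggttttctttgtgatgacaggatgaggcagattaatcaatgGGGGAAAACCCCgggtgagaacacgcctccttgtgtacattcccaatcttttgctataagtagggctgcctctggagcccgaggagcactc
Ccl24, chr12:26737173-26737422, plus strand: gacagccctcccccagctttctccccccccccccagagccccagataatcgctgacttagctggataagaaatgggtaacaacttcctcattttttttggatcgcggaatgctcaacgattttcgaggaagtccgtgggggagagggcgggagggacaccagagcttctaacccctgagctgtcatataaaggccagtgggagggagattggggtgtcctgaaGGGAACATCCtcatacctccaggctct

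The Ccl17 window held 1 STAT6-like match, TTCTTTGGAA, 68 to 59 bases before the start. The Ccl20 window held 4 kappa-B-like matches, of which 3 overlap in 1 stretch between 91 and 80 bases before the start. The Ccl22 window held 2 kappa-B-like matches and the Ccl24 window 1, so these letters stood both before ligands that rose and before the ligand that fell. Such matches are common: of 33469 rat promoter windows of the same length, 42.3% held the kappa-B-like letters, 6.25% the STAT6-like letters and 6.34% the AP-1-like letters. The Ccr6 window had no match to the 3 motifs. A match describes letters and is neither a binding site nor a cause.

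At 1 day after exposure, 3 of the 6 genes tested in lung rose and 1 fell. Ccl22, Ccl20 and Ccl17 were higher in silica lungs, and Ccl24 was lower, while Ccl11 and the receptor Ccr6 did not pass the test. Ccr4 had too few counts to be tested, and Ccl17 was tested only through the counts of the silica group. Of all 15331 genes tested in that comparison, 8.39% were called higher and 5.72% lower at an adjusted p under 0.05. Because the members were chosen with earlier results known, their calls beside these shares are a description and no test of the set. The median log2 fold change over all genes was -0.0024. Values below are CPM, the estimated counts scaled to a common library total, and, for silica over air, log2 fold changes ± SE with adjusted p-values from edgeR's quasi-likelihood test. CPM is not corrected for gene length, so levels of different genes are not compared.

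**Figure D1:**
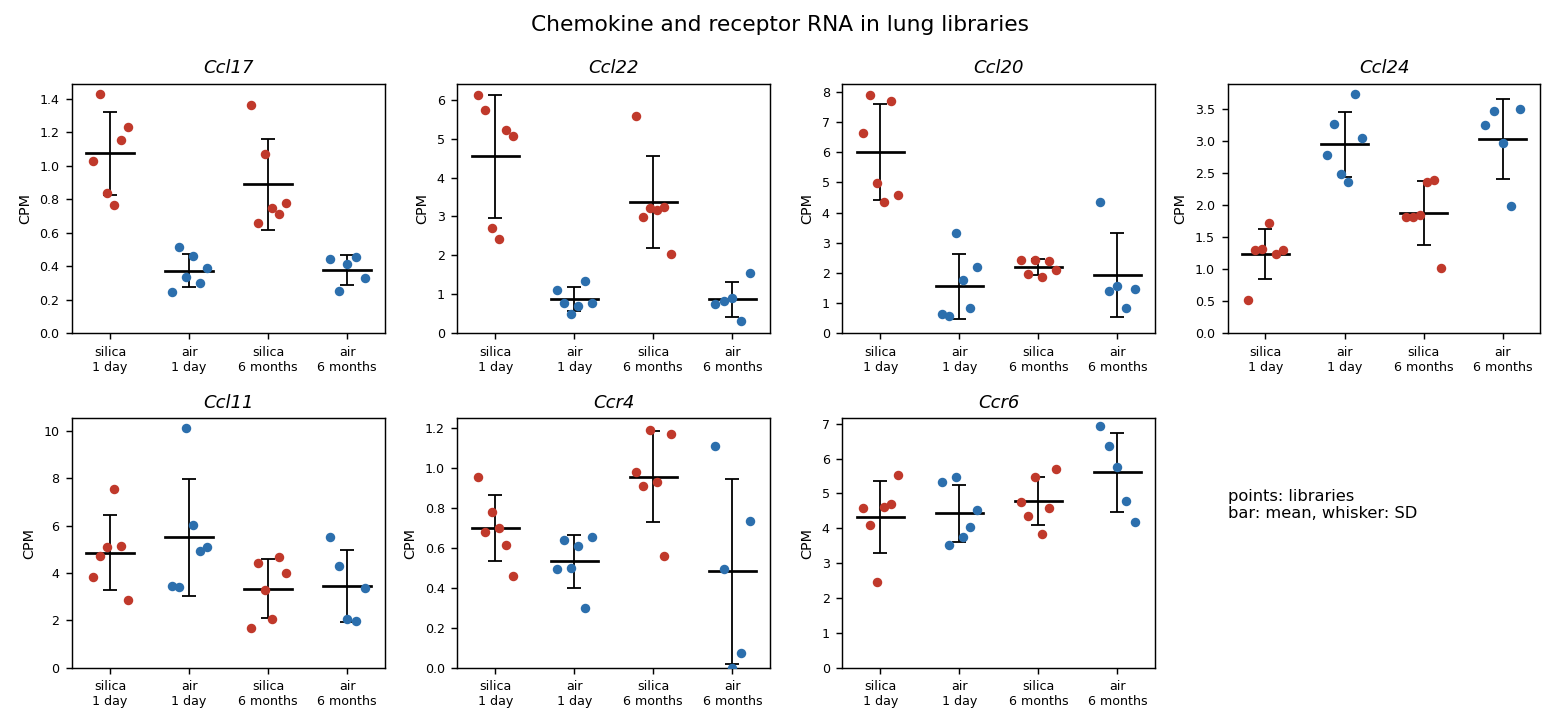
Level of each gene in every lung library, in CPM (vertical axes, each from 0), for silica and air at 1 day and 6 months (horizontal axes); points are libraries, bars means and whiskers SD. Ccl22 lies above all air libraries at both times, Ccl20 stands high in silica lungs at 1 day, and Ccl24 lies below all air libraries at 1 day.

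The Ccr4 ligand Ccl22 had the largest fold change of the 6 members tested in lung at each time. In silica lungs at 1 day it was at 2.43 CPM in the lowest library, 5.14 at the median and 6.12 in the highest, against 0.498, 0.771 and 1.35 CPM in air lungs. The groups did not overlap, with 38 to 84 counts per silica library and 6 to 20 per air library. The means were 4.54 ± 1.58 CPM in silica lungs and 0.864 ± 0.309 CPM in air lungs (SD, n = 6 each). Ccl22 rose by log2 2.37 ± 0.28 (adjusted p = 6.43e-05, edgeR). Within the silica group 4 libraries lay between 5.06 and 6.12 CPM and the other 2 at 2.43 and 2.69 CPM.

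Ccl17, the other Ccr4 ligand, was also higher in silica lungs at 1 day. It was at 0.766 CPM in the lowest silica lung, 1.09 at the median and 1.4 in the highest, against 0.247, 0.359 and 0.512 CPM in air lungs. Silica libraries held 12 to 21 counts and air libraries 4 to 10, so all silica libraries lay above all air libraries. Ccl17 rose by log2 1.5 ± 0.24 (adjusted p = 8.93e-04, edgeR). It passed the filter on low counts only through the silica group, so a gene at this level had to be higher there to be tested at all.

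At 6 months Ccl22 was at 2.03 CPM in the lowest silica lung, 3.19 at the median and 5.58 in the highest. The 5 air lungs held 0.738, 0.825, 0.907, 0.304 and 1.55 CPM. The groups again did not overlap, and 5 of the 6 silica libraries lay at or below 3.25 CPM, with 1 library far above the rest. Ccl22 rose by log2 2.0 ± 0.34 at 6 months (adjusted p = 0.00186, edgeR), and over fits that left out 1 library at a time the rise ranged from 1.77 to 2.31. Ccl22 was the 1 gene of the 6 tested that rose at this time, and 0 fell, beside 9.84% called higher and 6.38% called lower among 15309 genes tested, whose median log2 fold change was -0.008.

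Ccl17 did not pass the count filter at 6 months. Its level there was 0.658 CPM in the lowest, 0.762 at the median and 1.36 in the highest silica lung, against 0.443, 0.248, 0.412, 0.456 and 0.327 CPM in the 5 air lungs. These are 10 to 18 counts per silica library and 3 to 6 per air library, with no overlap. With no filter on low counts, Ccl17 was higher by log2 1.24 ± 0.29 (adjusted p = 0.0139, edgeR).

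The receptor of both ligands, Ccr4, was sparse in lung. At 1 day it held 6 to 13 counts per silica library and 4 to 17 per air library, too few for the filter, with means of 0.699 ± 0.166 CPM in silica lungs and 0.533 ± 0.134 CPM in air lungs (SD, n = 6 each). With no filter its difference at 1 day was log2 0.37 ± 0.25 (adjusted p = 0.49, edgeR). At 6 months silica lungs held 0.559 CPM in the lowest library, 0.955 at the median and 1.19 in the highest. Air lungs held 1.11, 0.495, 0, 0.076 and 0.736 CPM, so 3 of the 5 lay below every silica library and the other 2 among them, with 0 counts in 1 library, which allows up to 3. The difference at 6 months was log2 0.98 ± 0.53 and did not pass the test (adjusted p = 0.238, edgeR); Ccr4 was tested there through the silica group's counts.

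Ccl20, the Ccr6 ligand, was high in silica lungs at 1 day. It was at 4.34 CPM in the lowest library, 5.8 at the median and 7.91 in the highest, against 0.576, 1.29 and 3.32 CPM in air lungs. All silica libraries lay above all air libraries, with 60 to 116 counts per silica library and 9 to 57 per air library. The means were 6.02 ± 1.59 CPM in silica lungs and 1.55 ± 1.09 CPM in air lungs (SD, n = 6 each). Ccl20 rose by log2 1.96 ± 0.35 (adjusted p = 0.00179, edgeR).

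At 6 months the groups overlapped for Ccl20. Silica lungs held 1.86 CPM in the lowest library, 2.25 at the median and 2.43 in the highest, a narrow range. The 5 air lungs held 4.35, 1.4, 1.57, 0.836 and 1.5 CPM, so 4 lay below every silica library and 1 above all of them. The difference over all libraries was log2 0.22 ± 0.33 (adjusted p = 0.703, edgeR). Without the air library at 4.35 CPM, that of animal 49, it was log2 0.76 and passed the test (adjusted p = 0.0252, edgeR). Ccl20 was thus not called over all libraries at 6 months, and the lack of a call depended on this library.

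The silica effect on Ccl20 was lower at 6 months than at 1 day by log2 1.74 ± 0.52 as an interaction over the 4 lung groups (adjusted p = 0.112, edgeR). By DESeq2 the same difference passed (adjusted p = 0.03), as it did by edgeR without the 1-day air library of animal 39, the highest of its group (adjusted p = 0.0338). None of the 7 genes differed between times at an adjusted p under 0.05 by edgeR, with 1 at an unadjusted p under 0.05, beside 1.12% called higher and 0.253% called lower at 6 months among 15786 genes tested. For Ccl22 the difference between times was log2 -0.37 (adjusted p = 0.776, edgeR), for Ccl17 -0.26 (adjusted p = 0.828) and for Ccl24 0.61 ± 0.31 (adjusted p = 0.392). A p above the threshold does not show that the effects were equal.

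Ccr6 itself stayed within the spread of its groups in lung. It averaged 4.32 ± 1.02 CPM in silica lungs and 4.44 ± 0.818 CPM in air lungs at 1 day (SD, n = 6 each; log2 -0.044 ± 0.17, adjusted p = 0.906, edgeR). At 6 months it averaged 4.78 ± 0.691 CPM in silica lungs (n = 6) and 5.6 ± 1.13 CPM in air lungs (n = 5), a difference of log2 -0.20 ± 0.15 (adjusted p = 0.393, edgeR). The sign at 1 day turned in 3 of the fits that left out 1 library, between -0.13 and 0.076.

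**Figure D2:**
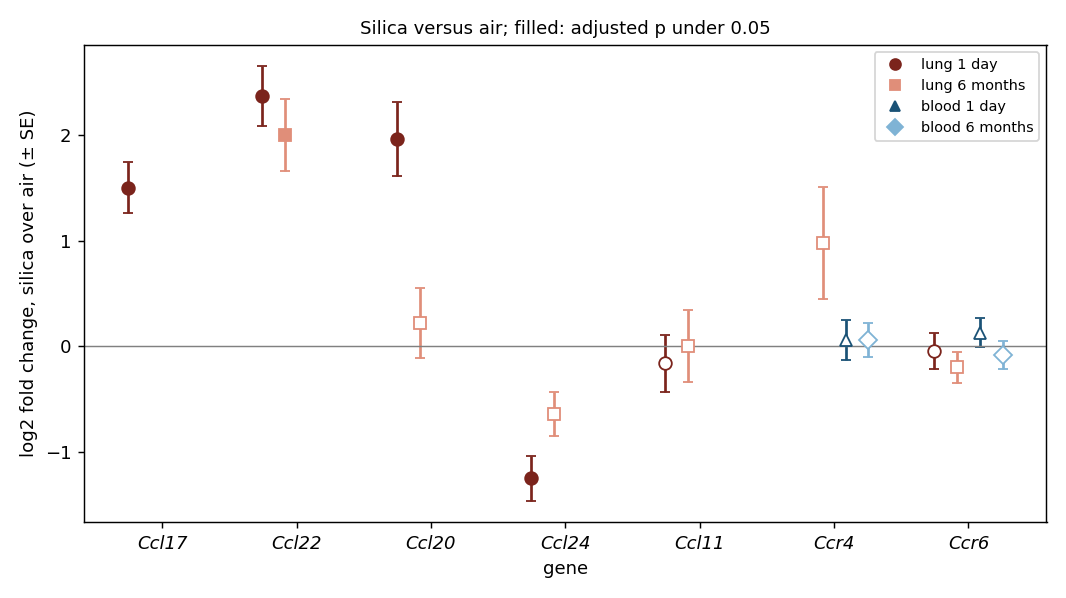
Log2 fold change of silica over air ± SE (vertical axis) for each gene (horizontal axis) in lung and blood at 1 day and 6 months, from edgeR; filled symbols have an adjusted p under 0.05, and genes under the count filter have no symbol. Ccl17, Ccl22 and Ccl20 lie above 0 and Ccl24 below 0 at 1 day in lung, and only Ccl22 is filled at 6 months.

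The eotaxin Ccl24 moved opposite to the 3 ligands that rose. At 1 day it was at 0.516 CPM in the lowest silica lung, 1.30 at the median and 1.72 in the highest, against 2.37, 2.92 and 3.74 CPM in air lungs. Every silica library lay below every air library, with 7 to 27 counts per silica library and 30 to 79 per air library. The means were 1.23 ± 0.393 CPM in silica lungs and 2.95 ± 0.512 CPM in air lungs (SD, n = 6 each). Ccl24 fell by 1.25 ± 0.21 on the log2 scale (adjusted p = 0.00113, edgeR).

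At 6 months Ccl24 was at 1.01 CPM in the lowest silica lung, 1.83 at the median and 2.39 in the highest. The air lungs held 3.25, 3.47, 2.97, 1.98 and 3.51 CPM, so 4 of the 5 lay above every silica library and 1 lay among them. The difference was log2 -0.64 ± 0.21, just outside the threshold (adjusted p = 0.057, edgeR). It passed by DESeq2 (adjusted p = 0.0302), with robust dispersions (0.0498) and with all 4 lung groups in 1 fit (0.0398). It also passed by edgeR without the air library of animal 53, which is the one at 1.98 CPM (adjusted p = 0.0295), and without the silica library of animal 61 (0.0478) or 62 (0.0472).

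Ccl11, the other eotaxin, did not follow Ccl24. It was at 2.84 CPM in the lowest silica lung at 1 day, 4.90 at the median and 7.53 in the highest, against 3.39, 5.02 and 10.1 CPM in air lungs. The groups overlapped over most of their range (log2 -0.16 ± 0.27, adjusted p = 0.754, edgeR), and without the air library at 10.1 CPM, that of animal 39, the sign turned to 0.089. At 6 months it averaged 3.34 ± 1.25 CPM in silica lungs (n = 6) and 3.44 ± 1.51 CPM in air lungs (n = 5), with an adjusted p of 1 by edgeR.

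Because Ccl22 and Ccl24 moved apart, their count ratio within a library was computed, which needs no scaling between libraries. Ccl22 counts over Ccl24 counts were 1.4, 4.07 and 11.9 in the lowest, median and highest silica lung at 1 day, against 0.20, 0.272 and 0.40 in air lungs. At 6 months the ratio was 1.34, 1.69 and 3.08 in silica lungs, against 0.227, 0.238, 0.306, 0.154 and 0.442 in the 5 air lungs. Every silica lung had a higher ratio than every air lung at both times. Counts are not corrected for gene length, so the ratio compares libraries and not the levels of the 2 genes. The pair was chosen for its opposite directions, so these ratios are a description with no test.

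**Figure D3:**
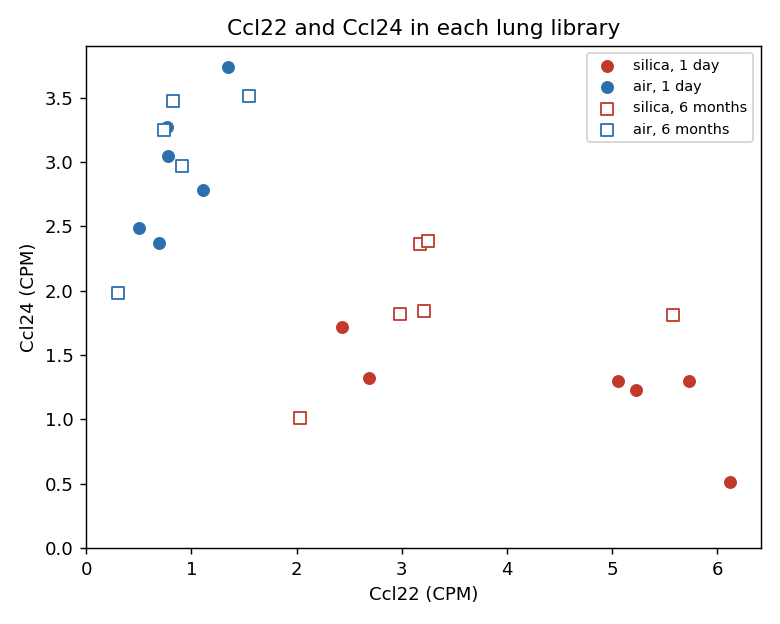
Ccl22 (horizontal axis) and Ccl24 (vertical axis) in CPM in each of the 23 lung libraries; filled circles are 1 day, open squares 6 months, red silica and blue air. Air libraries lie at the upper left, at or below 1.55 CPM of Ccl22, and silica libraries at the right, at or above 2.03 CPM.

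In blood the ligands were barely counted. Ccl20 had 0 counts in all 24 blood libraries, which allows up to 3 counts in each. Ccl22 held 0 to 5 counts per silica library and 2 to 10 per air library at 1 day, and 1 to 7 and 1 to 5 at 6 months. Ccl17, Ccl24 and Ccl11 held at most 6 counts in any blood library and did not pass the count filter there. With no filter, none of them passed the test in blood by edgeR. The largest differences were log2 -2.73 ± 1.15 for Ccl11 at 1 day (adjusted p = 0.47, edgeR) and -2.46 ± 0.95 for Ccl17 at 6 months (adjusted p = 0.679, edgeR). That Ccl17 value rests on 1 count over all silica libraries and 11 over all air libraries.

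Both receptors were measurable in blood and did not pass the test there. At 1 day Ccr4 was at 1.82 CPM in the lowest silica blood library, 3.17 at the median and 3.89 in the highest, against 2.07, 2.73 and 3.63 CPM in air blood (log2 0.062 ± 0.19, adjusted p = 0.932, edgeR). Ccr6 was at 10.6, 15.3 and 18.5 CPM in silica blood and at 7.10, 14.0 and 16.3 CPM in air blood (log2 0.13 ± 0.14, adjusted p = 0.737, edgeR). The groups overlapped for both receptors.

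At 6 months Ccr4 averaged 2.97 ± 0.598 CPM in silica blood and 2.74 ± 0.505 CPM in air blood (SD, n = 6 each; log2 0.060 ± 0.16, adjusted p = 0.933, edgeR). Ccr6 averaged 11.0 ± 2.72 CPM in silica blood and 11.1 ± 2.45 CPM in air blood (SD, n = 6 each; log2 -0.084 ± 0.13, adjusted p = 0.871, edgeR). Neither of the 2 genes tested passed at either time, by edgeR or DESeq2, and 0 had an unadjusted p under 0.05 by edgeR. Among all genes, 1.19% were called higher and 0.18% lower of 12253 tested at 1 day, and 0.0086% higher and 0% lower of 11629 at 6 months.

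The silica effect in lung was set against that in blood as an interaction. For Ccl22 at 1 day it was larger in lung by log2 3.19 ± 0.59 (adjusted p = 0.00205, edgeR), and by 3.13 with the animal number as a block (adjusted p = 0.0149). At 6 months it was log2 1.67 and did not pass (adjusted p = 0.149, edgeR; 1.3 with the block, adjusted p = 0.433). Ccl22 did not pass the filter in blood alone, with 0 to 10 counts per library, and entered these fits through the lung libraries where it was high. For the receptors the difference at 1 day was log2 0.26 for Ccr4 (adjusted p = 0.741) and -0.23 for Ccr6 (adjusted p = 0.676), and at 6 months 0.89 for Ccr4 (adjusted p = 0.403; 1.63 with the block, adjusted p = 0.273) and -0.14 for Ccr6 (adjusted p = 0.81), none past the threshold in edgeR. Of all genes, 4.03% of 15989 differed between tissues at 1 day and 3.53% of 15790 at 6 months.

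**Figure D4:**
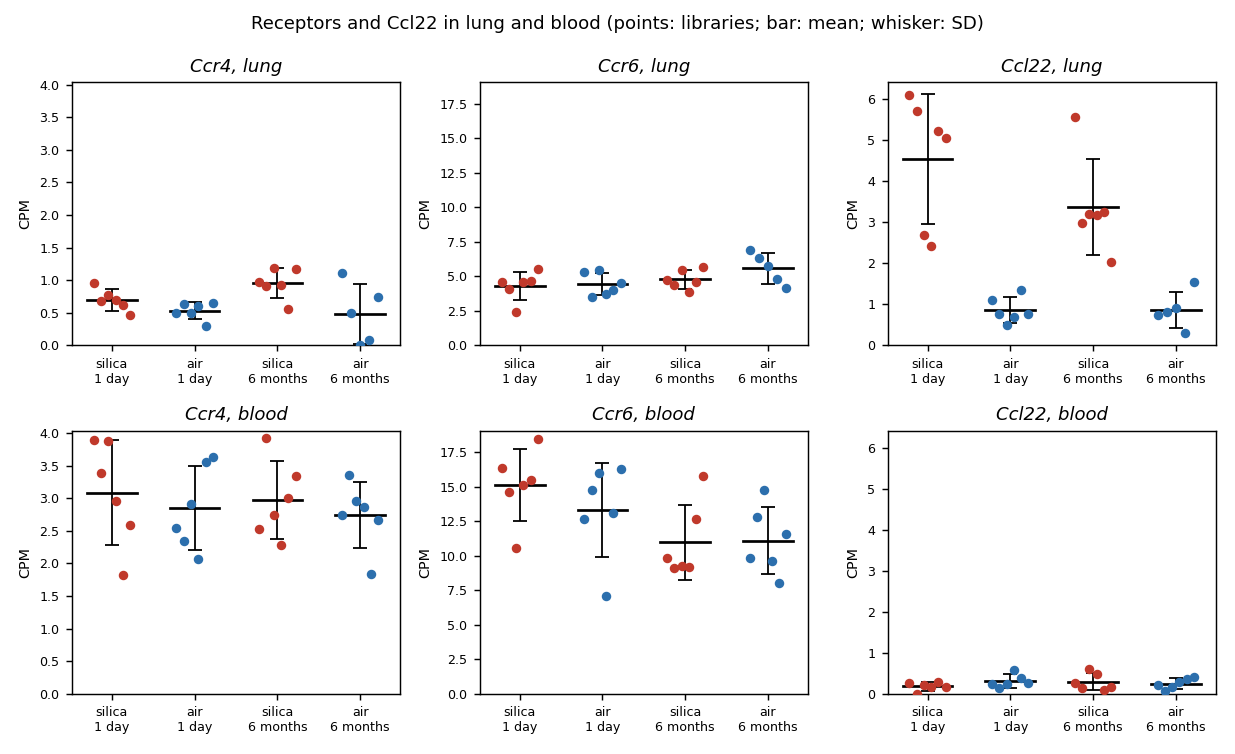
Ccr4, Ccr6 and Ccl22 in CPM (vertical axes, the same scale for a gene in both rows) in lung (top) and blood (bottom), for silica and air at 1 day and 6 months; points are libraries, bars means and whiskers SD. Ccl22 stays at or below 0.60 CPM in every blood library, and both receptors overlap between silica and air in blood.

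Genes that receive or handle these ligands were counted next. Of the 9 on that list, 5 were tested in lung at each time, 0 rose and 0 fell, with a median log2 fold change of 0.019 at 1 day and -0.078 at 6 months. Ccr3, the eotaxin receptor, averaged 3.28 ± 1.00 CPM in silica lungs and 3.26 ± 0.993 CPM in air lungs at 1 day (SD, n = 6 each; adjusted p = 0.974, edgeR). Ackr4, an atypical receptor that removes chemokines without signalling, was at 33.3 ± 3.57 CPM in silica lungs and 39.1 ± 3.45 CPM in air lungs (log2 -0.22 ± 0.075, adjusted p = 0.0628, edgeR), which passed by DESeq2 (0.0345), with robust dispersions (0.0498) and without the air library of animal 42 (0.0394) or the silica library of animal 45 (0.00789). Ackr2, another scavenging receptor, differed by log2 -0.12 ± 0.14 at 1 day (adjusted p = 0.644), and Dpp4, a protease that trims chemokines including Ccl22 and Ccl11, by 0.035 ± 0.04 (adjusted p = 0.636). Ackr1, a chemokine-binding protein of vessels and red cells, differed by log2 -0.34 ± 0.12 at 6 months (adjusted p = 0.0738), and passed without the silica library of animal 58 (adjusted p = 0.0271) and with all 4 lung groups in 1 fit (0.0445). Ccr3 in blood averaged 42.2 ± 6.19 CPM in silica rats and 37.1 ± 2.63 CPM in air rats at 1 day (SD, n = 6 each; adjusted p = 0.634, edgeR).

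The dendritic cell list was counted in lung beside all genes, of which more rose than fell at both times (8.39% against 5.72% at 1 day, 9.84% against 6.38% at 6 months). Of 18 tested at 1 day, 3 rose (Clec10a, Irf8 and Lamp3) and 0 fell, with a median log2 fold change of 0.20 beside -0.0024 over all genes. Of 17 tested at 6 months, 5 rose (Cd83, Cd86, Clec9a, Irf4 and Lamp3) and 1 fell (Zbtb46), with a median of 0.27 beside -0.008. Clec10a, a lectin of conventional dendritic cells and macrophages, was at 26.8 ± 1.4 CPM in silica lungs and 20.9 ± 2.34 CPM in air lungs at 1 day (log2 0.36 ± 0.068, adjusted p = 0.00247, edgeR). Cd83, a marker of mature dendritic cells, was at 36.8 ± 5.99 CPM in silica lungs and 26.0 ± 0.787 CPM in air lungs at 6 months (log2 0.54 ± 0.10, adjusted p = 0.00371, edgeR), whereas the dendritic cell factor Zbtb46 fell by 0.41 ± 0.08 on the log2 scale (adjusted p = 0.00472). Lamp3, which alveolar type 2 cells also express, made up most of the list's summed level; without it the sum was 239 to 284 CPM in silica lungs and 220 to 248 CPM in air lungs at 1 day, and 232 to 284 and 229 to 269 CPM at 6 months. The part of these cells in the ligands' changes was not tested.

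Type 2 cytokines, which are known inducers of Ccl17, Ccl22 and the eotaxins, were sparse: Il4 and Il9 had 0 counts in every lung library at 1 day, and Il5, Il13 and Il9 at 6 months, which allows up to 3 counts in each. Of 13 genes of the type 2 list tested at each time, 2 rose and 1 fell. The list medians were -0.073 at 1 day and -0.042 at 6 months. Beside them, 8.39% of all genes tested were called higher and 5.72% lower at 1 day, and 9.84% and 6.38% at 6 months. Il1rl1, the interleukin 33 receptor, rose by log2 0.43 ± 0.065 at 1 day (adjusted p = 5.47e-04, edgeR) and 0.38 ± 0.065 at 6 months (adjusted p = 0.00192). Il33, an alarmin, fell by 0.18 ± 0.054 on the log2 scale at 1 day (adjusted p = 0.0428) and by 0.41 ± 0.054 at 6 months (adjusted p = 4.45e-04). The Il33 call at 1 day did not hold with no filter (adjusted p = 0.0572) or without any of 9 single libraries, those of air animals 37, 39, 41 and 42 and silica animals 43, 45, 46, 47 and 48 (adjusted p up to 0.0917). The other gene that rose was Il13ra1 at 1 day and Crlf2 at 6 months. The part of these cytokines in the ligands' changes was not tested.

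Macrophage genes linked to STAT6, the signalling factor of interleukins 4 and 13, went both ways. At 1 day 4 of 13 tested rose and 3 fell, with a median log2 fold change of 0.063. At 6 months 7 of 13 rose and 1 fell, with a median of 0.33. Over all genes tested, 8.39% were called higher and 5.72% lower at 1 day, and 9.84% and 6.38% at 6 months. The all-gene medians were -0.0024 and -0.008. Retnla, a resistin-like secreted protein of alternatively activated macrophages and airway cells, rose by log2 1.08 ± 0.18 at 1 day (adjusted p = 0.00107, edgeR) and 3.59 ± 0.49 at 6 months (adjusted p = 5.17e-04). Alox15, a lipoxygenase, was at 7.09 ± 0.744 CPM in silica lungs and 15.4 ± 1.70 CPM in air lungs at 1 day, and fell by 1.11 ± 0.089 on the log2 scale. Interstitial macrophage genes gave 0 calls of 9 tested at 1 day, and 3 higher and 1 lower (F13a1) at 6 months. At 1 day F13a1, the coagulation factor XIII gene, also passed as lower by DESeq2 (adjusted p = 0.0154).

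Genes of the cells that carry these receptors were read against the share over all genes, which was 8.39% higher and 5.72% lower at 1 day and 9.84% higher and 6.38% lower at 6 months. Of the eosinophil list, 2 of 6 genes were tested in lung, and the rest did not pass the count filter. Siglec5 rose by log2 0.42 ± 0.098 at 1 day (adjusted p = 0.00972, edgeR), while the eotaxin receptor Ccr3 did not pass (0.019 ± 0.22, adjusted p = 0.974). At 6 months 0 were called. Of the T cell list, 0 of 11 rose and Cd4 fell at 1 day, while at 6 months 3 of 13 rose: the activation markers Il2ra (log2 0.91 ± 0.17, adjusted p = 0.00309, edgeR), Tnfrsf4 (1.06 ± 0.24, adjusted p = 0.00991) and Icos (0.65 ± 0.17, adjusted p = 0.0182). The Icos call was lost without the air library of animal 53 (adjusted p = 0.0502). On the list of Ccr6-linked interleukin 17 genes, 1 of 5 tested rose and 1 fell at 1 day, and 0 of 6 passed at 6 months by edgeR. The gene that rose was Il1b (log2 1.17 ± 0.18, adjusted p = 5.45e-04). On the B cell list of 8 tested genes, Fcer2 was higher at 1 day (adjusted p = 0.031) and Cd22 lower at 6 months (adjusted p = 0.0251); the Fcer2 call was lost without any of 5 single libraries, of air animals 37, 38 and 40 and silica animals 47 and 48, and the Cd22 call without any of 4, of air animals 49 and 54 and silica animals 58 and 59.

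Structural and blood markers were counted for the make-up of the samples. Calls stand beside shares over all genes of 8.39% higher and 5.72% lower at 1 day, and 9.84% higher and 6.38% lower at 6 months. Fibroblast and smooth muscle genes summed to 1313 to 1553 CPM in silica lungs and 1439 to 1663 CPM in air lungs at 1 day, and to 1084 to 1299 CPM in silica lungs and 1361 to 1560 CPM in air lungs at 6 months, where the ranges do not overlap. Of the 9 genes, 2 were lower and 0 higher at each time. Lung epithelial genes summed to 18929 to 21376 CPM in silica lungs and 21201 to 25509 CPM in air lungs at 1 day, with 1 of 8 higher and 4 lower. At 6 months they summed to 21470 to 23276 CPM in silica lungs and 18551 to 21891 CPM in air lungs, with 2 of 8 higher and 1 lower. Single genes weigh heavily in the epithelial sums. Scgb1a1 was at 5524 ± 539 CPM in silica lungs and 7149 ± 1171 CPM in air lungs at 1 day. Sftpc was at 11436 ± 343 CPM in silica lungs and 8975 ± 713 CPM in air lungs at 6 months. The median log2 fold change of the list was -0.12 at 1 day and 0.039 at 6 months. Blood cell genes summed to 1640 to 2408 CPM in silica lungs and 1908 to 2678 CPM in air lungs at 1 day. Of 8, 3 were higher, among them the neutrophil genes S100a8 and S100a9, and 3 were lower (Alas2, Hbb and Itga2b). Hbb made up most of that sum, at 1515 ± 157 CPM in silica lungs and 2108 ± 245 CPM in air lungs. In blood, epithelial genes summed to at most 4.79 CPM and fibroblast genes to at most 1.85 CPM. The part of these shifts in the ligands' changes was not tested.

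In blood at 1 day, 6 genes of the 12 lists rose: S100a8 (log2 0.76 ± 0.065, adjusted p = 1.33e-04, edgeR), S100a9, Ccl6, Il13ra1, Siglec5 and Il1b, and 0 fell. They stood among 8 blood cell, 10 STAT6-linked macrophage, 10 type 2, 3 eosinophil and 4 interleukin 17 genes tested. No gene of the other lists was called. Of all 12253 genes tested there, 1.19% were called higher and 0.18% lower. Il1b averaged 364 ± 47.8 CPM in silica blood and 256 ± 24.2 CPM in air blood (SD, n = 6 each; log2 0.45 ± 0.09, adjusted p = 0.0249, edgeR), a call lost without any of 5 single libraries, of air animals 38, 41 and 42 and silica animals 45 and 46. The Siglec5 call was lost without any of 4, of air animals 37, 41 and 42 and silica animal 45, and the Il13ra1 call with all 4 blood groups in 1 fit (adjusted p = 0.102). At 6 months 0 genes of these lists passed in blood by edgeR.

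Variation between animals of a group was then described. Over the 23 lung libraries, after the 4 group means were taken out, the pair most alike was Ccl20 and Ccl11 (r = 0.56, rho = 0.38) and the pair least alike Ccl17 and Ccl11 (r = -0.44, rho = -0.45). The 2 Ccr4 ligands correlated at r = 0.21, and Ccl22 with Ccl24 at r = 0.20. These values describe residuals that share a library and its depth, at low counts for Ccl17 and Ccr4.

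The genes most like each member in the same residuals were ranked among 13442 genes. For Ccl20 they were the complement gene C9 (r = 0.83, rho = 0.76), the dynein light chain Dynlrb2 (0.82, 0.73) and the airway secretory gene Bpifb1 (0.82, 0.73). In the air lung of animal 49, where Ccl20 was highest, Bpifb1 was at 16.5 CPM, C9 at 3.32 CPM and Dynlrb2 at 34.1 CPM, against at most 6.6, 1.06 and 23.7 CPM in the other 4 air lungs at 6 months. In the air lung of animal 39, the highest for Ccl20 at 1 day, they were at 14.9, 2.99 and 34.9 CPM, each the highest of that group too. These 3 genes were picked for following Ccl20 over these same libraries, so peaks in the same animals largely follow from that choice. Whether the airway content of a tissue piece moved Ccl20 was not tested.

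For Ccl22 the most alike genes were the inhibitory receptor gene Cd200r1 (r = 0.80, rho = 0.72), Ppapdc1b (0.79, 0.71) and the metal transporter Slc11a2 (0.73, 0.70). For Ccl24 they were the nuclear pore gene Nup160 (0.78, 0.71), Nol11 (0.74, 0.51) and Galnt16 (0.70, 0.61), and for Ccl17 Psmd11, Camkk2 and Gmps (r of 0.71 to 0.72). For Ccl11 they were Trappc6a (0.89, 0.85), Gdap1 (0.85, 0.89) and Cd24 (0.85, 0.83). For the receptors they were Rassf6, Parpbp and Wbp1 (r of 0.73 to 0.76, Ccr4) and Cry2, Abt1 and Nr2f1 (r of 0.74 to 0.80, Ccr6).

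Neighbouring genes, named for their position and outside the rule for named genes, did not all follow the members. In the RefSeq gene order of GRCr8, Cx3cl1, the ligand of the monocyte receptor Cx3cr1, lies between Ccl17 and Ccl22 and also rose, by log2 1.09 ± 0.072 at 1 day (adjusted p = 5.86e-07, edgeR) and 0.55 ± 0.074 at 6 months (adjusted p = 4.78e-04). The genes on the outer sides, Ciapin1 beside Ccl17 (log2 0.048 ± 0.048, adjusted p = 0.579 at 1 day) and Pllp beside Ccl22 (-0.19 ± 0.15, adjusted p = 0.445), did not pass. Ccl11 lies between Ccl7 and Ccl12, with Ccl2 on the far side of Ccl7, and these 3 monocyte chemoattractants rose at both times while Ccl11 did not pass. Ccl7 rose by log2 2.6 ± 0.19 at 1 day and 3.02 ± 0.49 at 6 months, Ccl2 by 2.6 ± 0.18 and 2.69 ± 0.32, and Ccl12 by 1.32 ± 0.40 (adjusted p = 0.0386) and 1.79 ± 0.50 (adjusted p = 0.0292). The Ccl12 call at 1 day was lost with no filter (adjusted p = 0.054), with all 4 lung groups in 1 fit (0.0553) and without any of 8 single libraries, of air animals 38, 39, 40 and 42 and silica animals 43, 44, 47 and 48. At 6 months it was lost without any of 6, of air animals 49, 51, 52 and 54 and silica animals 58 and 60. Ccl26, the eotaxin gene next to Ccl24, did not reach the count filter.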

How the data were processed

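RNA was measured in 47 rat lung and whole blood libraries. The authors deposited 1 table for each tissue and time with estimated counts per gene, not normalized, which were rounded to whole numbers here. Salmon 1.10.1 and STAR 2.6.1d, the trimmers Trim Galore 0.6.7 and cutadapt 3.4, bcl2fastq 2.19, and as build Rnor_6.0 stand in the submitters' processing notes, which state neither roles nor order. Estimated counts split reads between similar genes; 266 names stood on more than 1 line, 0 of them members.

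Silica and air were compared within each table by edgeR's quasi-likelihood test (version 4.0.16, R 4.3.3). Genes were kept by filterByExpr at a minimum count of 10, scaled by TMM, and p-values adjusted by Benjamini-Hochberg over all genes tested, with a threshold of 0.05. SE was taken as |log2 fold change| divided by the square root of F. Time and tissue differences were interactions over 4 groups. Likeness is Pearson's r of log2 CPM (prior count 2) residuals. The floor is 3 counts per library, for counting error only. Alternatives were DESeq2 1.42.0, limma-voom (limma 3.58.1), RLE factors, a minimum count of 50, no filter, robust dispersions, all 4 groups of a tissue, globin and mitochondrial genes left out, summed gene models and each library left out in turn. Scripts were tested on simulated data.

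The labels do not give chambers, so treatment and chamber cannot be told apart, and p-values measure the spread between libraries of a group. Between libraries of a group the chi-square per degree of freedom was at least 3.62, so none agreed within sampling noise. Lung and blood titles share animal numbers, taken as the same animal. After group means were removed, same-numbered lung and blood libraries correlated from -0.048 to 0.1 over 12 animals at 1 day and from -0.052 to 0.068 over 9 at 6 months; the tissue comparisons were also fitted with the animal as a block.

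The members and the 12 lists (128 of 130 genes found) were chosen with earlier results of these data known. The lists cover ligand receptors and handling, dendritic cell, type 2 cytokine, STAT6-linked macrophage, interstitial macrophage, eosinophil, interleukin 17, T cell, B cell, fibroblast and smooth muscle, lung epithelium and blood cell genes; 5 genes stand on 2 lists. Named were all members, genes of the handling list, from each other list the 3 genes with the smallest p in each lung comparison and the 2 in each blood comparison, and the 3 genes most like each member; genes of these that add nothing to the counts are left unnamed, and a few are not reported here. All 7 members were found in the RefSeq GRCr8 gene table and 5 in its promoter table. Lists were described by counts and medians with no test.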

Additional observations from a re-analysis of the deposited data

Results flagged for a closer look

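In 32 groups of a member's lung or blood levels the highest or lowest library was compared with its neighbour by Dixon's ratio, and chance gives about 1 in 20 groups a library that stands apart. Ccl20 in the air lung of animal 49 at 6 months was at 4.35 CPM, and the next library was at 1.57 CPM. The gap over the range was 0.792, past the 95% critical value for 5 libraries. Ccl22 in the silica lung of animal 58 at 6 months was at 5.58 CPM, and the next library was at 3.25 CPM, a ratio of 0.655, past that for 6 libraries.

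The silica effect on Ccl22 at 1 day was larger in lung than in blood by log2 3.19, tested as an interaction by edgeR (adjusted p = 0.00205). Ccl22 held 0 to 10 counts per blood library, did not pass the filter in blood alone and entered the fit through the lung libraries where it was high, so the size of this difference is uncertain.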

How the results depend on the processing

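The 4 member calls at 1 day in lung kept their direction and their side of the threshold under each alternative in which the gene was tested. With a minimum count of 50 fewer members were tested, so 1 was called higher and 0 lower at 1 day and 0 higher at 6 months. At 6 months 2 were called higher with no filter and with all 4 groups in 1 fit, Ccl17 joining Ccl22. In the fit of all 4 groups Ccl17 passed the filter only through silica libraries, where it was high, so that call adds no support. There 1 member was called lower, Ccl24, by DESeq2, with robust dispersions and with all 4 groups. Between times 1 member, Ccl20, was called different by DESeq2. With 1 library left out, calls at 6 months were 1 to 2 higher and 0 to 1 lower, and 0 to 1 between times, as named above. The cause of these changes was not tested. With the animal number as a replicate block, Ccr6 between tissues at 6 months turned to log2 0.042, and no other member call changed.

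Signs of values that did not pass turned for Ccl11 at 6 months by limma-voom (0.044) and with no filter (0.0079). They also turned with 1 library left out, over these ranges of log2 fold change: Ccl11 -0.33 to 0.089 at 1 day, -0.15 to 0.23 at 6 months and -0.086 to 0.40 between times. In lung Ccr6 ranged from -0.13 to 0.076 at 1 day, Ccr3 from -0.12 to 0.14 at 1 day and -0.094 to 0.24 at 6 months, and Dpp4 from -0.0021 to 0.048 at 6 months. In blood Ccr4 ranged from -0.026 to 0.18 at 1 day and -0.073 to 0.13 at 6 months, and Ccr3 from -0.12 to 0.025 at 6 months. Over all genes, DESeq2 called 276 higher and 85 lower in blood at 1 day, and 2 and 1 at 6 months, and no filter left 11 lower at 1 day. Leaving out 1 library left as few as 79 higher and 4 lower in blood at 1 day.

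Depth limits Ccl17 and Ccr4 in lung, where a library held at most 21 counts of either. It also limits all 5 ligands in blood, where a library held at most 10 counts of any and often under 3.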
